A study of Mus musculus with 7 samples.

Results

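The expression of Lefty1 and of 9 other genes of transforming growth factor beta (TGF-beta) and activin signaling was examined in the mouse hippocampus. These 10 genes (Lefty1, Fst, Smad7, Inhba, Inhbb, Tgfb1, Tgfb2, Tgfb3, Acvr1c and Acvr2a) were taken by symbol from the 55416 gene identifiers of the count tables. The family was selected on the counts of Lefty1, which were 0 in the libraries of ONX-0914-treated mice. Therefore, the values of Lefty1 in those libraries are given as a description without a test. All 10 genes passed the filter on low counts, Lefty1 through the libraries in which it was detected, and were among the 13152 genes tested.

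RNA was sequenced from hippocampi of male, age-matched outbred CD1 mice, whose age is not given in the sources used here. Untreated (control) mice gave 3 libraries (replicates 1 to 3), mice injected with the vehicle DMSO gave 2 (replicates 2 and 3), and mice injected with ONX-0914 gave 2 (replicates 1 and 2). The compound ONX-0914 inhibits the immunoproteasome, the form of the proteasome with inducible catalytic subunits. It was given intraperitoneally at 10 mg/kg, 2 times a week for 2 months, and DMSO was given in equal volume on the same schedule. The sources do not say whether a library came from 1 mouse or from pooled tissue, so p-values measure the spread between these libraries only.

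Ligands of this family are secreted dimers that bring together type I and type II receptor kinases on the cell surface, and the active receptors phosphorylate SMAD proteins that enter the nucleus and regulate transcription. TGF-betas and activins signal through SMAD2 and SMAD3, while bone morphogenetic proteins use SMAD1, SMAD5 and SMAD9. The signal is restrained outside the cell by proteins such as the Lefty proteins and follistatin, and inside it by inhibitory SMADs. In the hippocampus, the activin subunit gene Inhba is known as a gene induced by neuronal activity.

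The libraries held 2842675 to 3877006 counts on genes, apart from ONX-0914 replicate 2, which held 13782270. Levels below are CPM (counts relative to library size) scaled for composition between libraries. Some libraries stood apart in marker genes, as the plot of marker lists shows. In ONX-0914 replicate 1, the summed levels of dentate gyrus (160 CPM), CA1 (190 CPM) and CA3 (124 CPM) markers were below the control ranges (421 to 535, 515 to 582 and 275 to 295 CPM). In the same library, all 7 striatal and all 8 thalamic and midbrain markers were above every control library, with sums of 1190 CPM against 218 to 251 and 947 CPM against 82.0 to 105 CPM. In ONX-0914 replicate 2, hippocampal neuron markers summed to 435, 618 and 253 CPM, blood markers reached 837 CPM against 30.0 to 40.1 CPM, and the mitochondrial share of counts was 3.71% against 0.818% to 1.59% in the other 6 libraries. Endothelial markers were above all control libraries for 5 of 5 genes in both ONX-0914 libraries (246 and 250 CPM against 135 to 148 CPM). The same held for 5 of 5 in DMSO replicate 3 (180 CPM) and for 0 of 5 in DMSO replicate 2 (139 CPM). No marker was at 0 in every library, and the library labelled ONX-0914 replicate 1 went partly against its tissue label. The part of tissue composition in the results below was not tested, and in bulk tissue fewer cells of a type cannot be told apart from less RNA per cell.

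**Figure D1:**
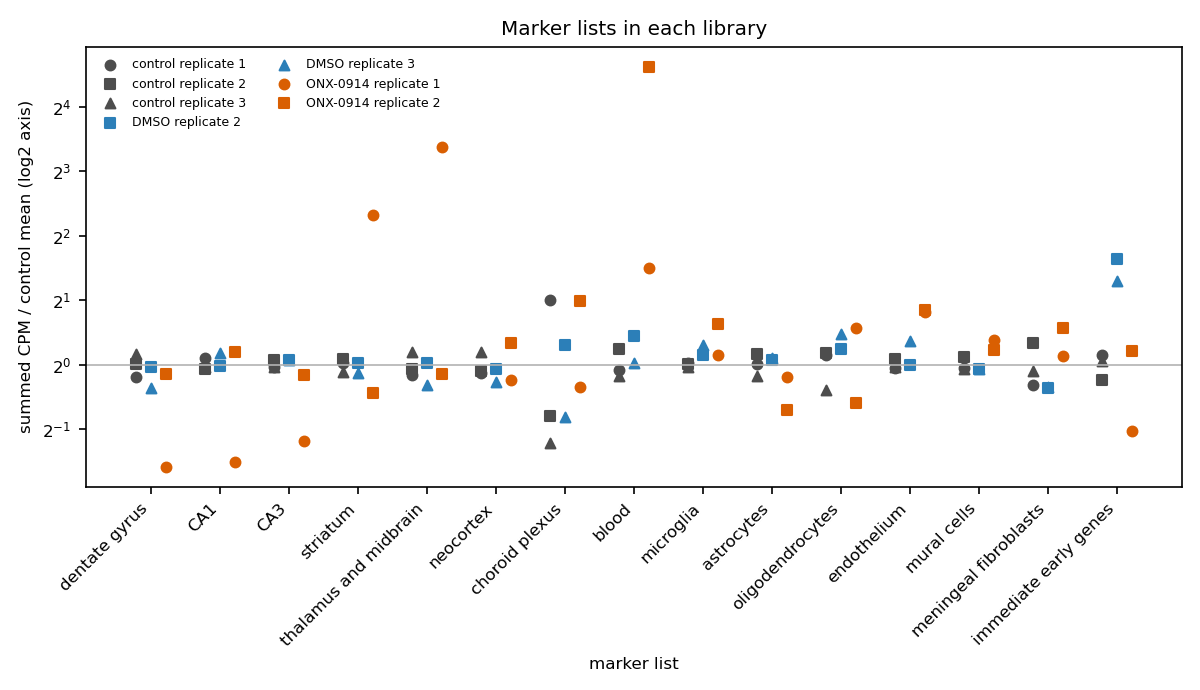
Summed CPM of each marker list divided by the mean of the 3 control libraries (vertical axis, log2 scale) for 15 lists and 7 libraries, with colors for groups and symbols for replicates. ONX-0914 replicate 1 lies low for the hippocampal fields and high for striatum, thalamus and midbrain, and ONX-0914 replicate 2 lies highest for blood.

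Lefty1 (ENSMUSG00000038793) encodes a secreted inhibitor of Nodal signaling that acts in left-right patterning of the embryo. It had 22, 24 and 18 counts in the control libraries (7.84, 6.54 and 4.96 CPM). In the DMSO libraries there were 0 counts in replicate 2 and 9 counts in replicate 3 (0 and 3.21 CPM), and both ONX-0914 libraries had 0 counts. Thus, every treated library lay below every control library, and 1 of the 2 vehicle libraries had no Lefty1 counts either.

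At the control mean of 6.45 ± 1.45 CPM (SD, n = 3), 25.6 and 97.6 counts would correspond to the depth of ONX-0914 replicates 1 and 2, and 24.0 counts to that of DMSO replicate 2. Taking 3 counts per library as the upper limit that a count of 0 allows, the level was at least 8.54-fold lower than the control mean in ONX-0914 replicate 1 and at least 32.5-fold lower in ONX-0914 replicate 2. Over the mean of both limits it was at least 13.5-fold lower. For DMSO replicate 2, the same limit gave a level at least 8.01-fold lower, while DMSO replicate 3 was 2.01-fold lower. These limits cover counting error only. Of the 10420 genes with a control mean of at least that of Lefty1, 1 gene (0.0096%), Lefty1 itself, had 0 counts in both ONX-0914 libraries. The selection had fixed this for Lefty1, and its own control mean set the cut, so this share is a description only.

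In DMSO vs control, the Log2FC of Lefty1 was −2.15 (SE 0.869, FDR = 1.0 over all genes, edgeR), which did not pass the threshold of 0.05. The ONX-0914 libraries that selected the gene enter the spread of this fit, and the gene passed the filter on low counts through the control libraries, so the value is given as a description. With the compared groups alone it was −2.17 (SE 0.616, FDR = 0.0952). Without DMSO replicate 2 it was −0.99 (SE 0.642), and without DMSO replicate 3 the remaining library was the one at 0, with the limit of at least 8.01-fold lower given above. The difference between the ONX-0914 and DMSO libraries rested on 9 counts in DMSO replicate 3.

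Just outside the selection rule stood genes with few counts in the ONX-0914 libraries. The antisense gene AC165951.1 had 63, 81 and 66 counts in control, none in DMSO, and 0 and 2 in ONX-0914 libraries. The keratin gene Krt5 had 43, 21 and 16 counts in control, 19 and 40 in DMSO, and 2 and 4 in ONX-0914 libraries. The pseudogene AC133509.1 had 3, 56 and 37 counts in control, 3 and 4 in DMSO, and 2 and 8 in ONX-0914 libraries. Only for Lefty1 and AC165951.1 among these 4 genes was DMSO replicate 2 at 0, and the DMSO libraries held Krt5 counts in the control range.

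Counts of Lefty1 depend on how reads were divided between it and its paralog Lefty2, since both genes are on chromosome 1 and have coding sequences of 1107 bases in the GENCODE M21 annotation (GRCm38). The coding sequences were identical at 1017 of 1107 positions (91.9%), and a 100-base window, the length of the reads, held a median of 4 and at most 30 differences. Of the 1521 windows of 100 bases in the Lefty1 transcript, 73 also occurred in Lefty2. The stretch with the most differences, at coding positions 39 to 138, shows that reads there can be assigned to 1 of the genes (capitals mark the bases that differ).
Lefty1: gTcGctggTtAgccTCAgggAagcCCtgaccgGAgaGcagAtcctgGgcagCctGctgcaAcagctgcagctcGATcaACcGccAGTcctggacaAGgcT
Lefty2: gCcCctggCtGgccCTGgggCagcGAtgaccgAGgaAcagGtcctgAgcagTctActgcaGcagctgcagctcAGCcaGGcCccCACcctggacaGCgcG
Lefty2 itself had 1 count in control replicate 3 and 0 in the other 6 libraries. Nodal, the ligand that Lefty proteins restrain, had 4, 2 and 2 counts in control, 1 and 3 in DMSO, and 4 and 12 in ONX-0914 libraries, which was too low to be tested. Tdgf1, the co-receptor of Nodal, had 0 to 7 counts per library and was not tested either.

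**Figure D2:**
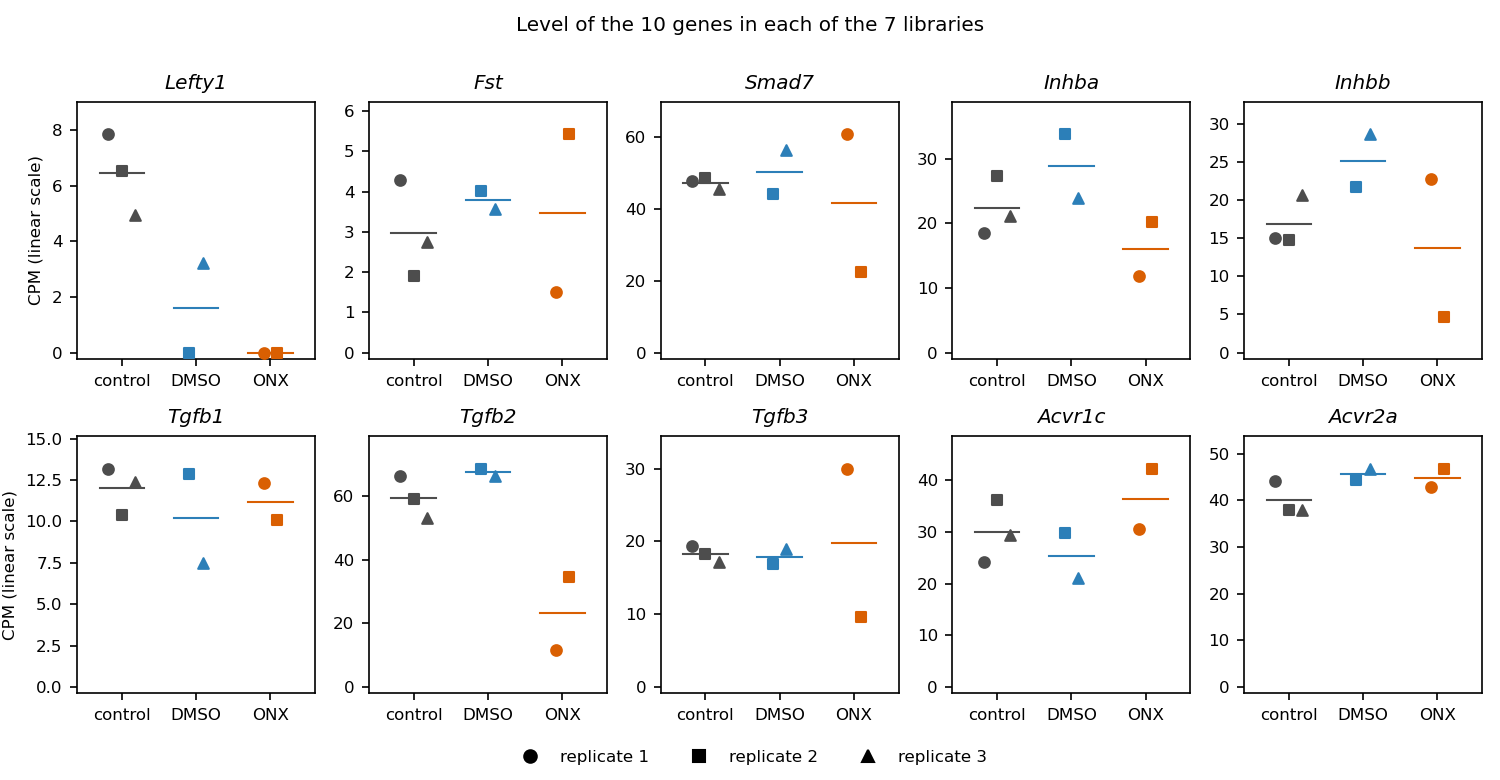
CPM of the 10 genes (vertical axes, linear and starting near 0, with a separate scale per gene) in control, DMSO and ONX-0914 libraries, with symbols for replicates and lines for group means. Lefty1 is at 0 in both ONX-0914 libraries and in DMSO replicate 2, Tgfb2 is below all other libraries in both ONX-0914 libraries, and Inhbb, Tgfb3, Fst and Smad7 have 1 ONX-0914 library above and 1 below the controls.

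Fst (ENSMUSG00000021765) encodes follistatin, which binds activins and keeps them from their receptors. It was the least expressed of the 10 genes in control libraries, with 4.28, 1.91 and 2.75 CPM in control, 4.02 and 3.57 CPM in DMSO, and 1.51 and 5.42 CPM in ONX-0914 libraries. ONX-0914 replicate 1 was below and replicate 2 above all control libraries, the latter on 82 counts against 6 in the former. The Log2FC of 0.45 (SE 0.553, FDR = 0.678) was smaller than its error. Without ONX-0914 replicate 1 it was 0.90, and without replicate 2 it was −0.92.

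Smad7 (ENSMUSG00000025880) encodes an inhibitory SMAD that binds type I receptors and is itself induced by the pathway. Control libraries were close together at 47.8, 48.5 and 45.4 CPM, and DMSO libraries were at 44.0 and 56.4 CPM. The ONX-0914 libraries were at 60.7 CPM (replicate 1) and 22.5 CPM (replicate 2), on either side of the controls. Accordingly, the Log2FC of −0.21 (SE 0.369, FDR = 0.772) became −1.08 without ONX-0914 replicate 1 and 0.36 without replicate 2.

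Inhba (ENSMUSG00000041324) and Inhbb (ENSMUSG00000037035) encode the beta A and beta B subunits of activins and inhibins. Inhba was at 18.5, 27.3 and 21.2 CPM in control, 33.8 and 23.9 CPM in DMSO, and 11.8 and 20.3 CPM in ONX-0914 libraries. ONX-0914 replicate 1 was below all control libraries, replicate 2 was within their range, and both were below both DMSO libraries. The Log2FC was −0.45 against control (SE 0.302, FDR = 0.443) and −0.82 against DMSO (SE 0.328, FDR = 0.312, edgeR), and neither passed the threshold. Without ONX-0914 replicate 1, the Log2FC was −0.16 against control and −0.54 against DMSO. Without replicate 2, these values were −0.93 and −1.31.

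Immediate early genes, which respond to neuronal activity, also varied between the groups. The summed level of 7 such genes was 220 to 290 CPM in control, 809 and 640 CPM in DMSO, and 127 and 300 CPM in ONX-0914 libraries, and each of the 7 exceeded the controls in both vehicle libraries. Counts of B230303A05Rik, a pseudogene on the strand opposite to Inhba, were at 14 to 21.8 CPM in control, 21.5 and 18.6 CPM in DMSO, and 6.29 and 4.63 CPM in ONX-0914 libraries. The share of either in the values of Inhba was not tested.

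Of the 9 members detected in both ONX-0914 libraries, Inhbb differed most between them. It was at 15, 14.7 and 20.7 CPM in control, 21.7 and 28.6 CPM in DMSO, and 22.7 and 4.69 CPM in ONX-0914 libraries, a 4.83-fold difference between the last pair. Both DMSO libraries were above all control libraries (Log2FC = 0.57, SE 0.558, FDR = 1.0). The Log2FC in ONX-0914 vs control was −0.41 (SE 0.573, FDR = 0.711). It was −1.85 (FDR = 7.44e-06) without ONX-0914 replicate 1 and 0.42 (FDR = 0.288) without replicate 2.

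The TGF-beta genes Tgfb1 (ENSMUSG00000002603), Tgfb2 (ENSMUSG00000039239) and Tgfb3 (ENSMUSG00000021253) encode ligands that are secreted in a latent form and bind the same receptors. Among them, Tgfb2 was the lowest relative to its control mean in ONX-0914 replicate 1. In replicate 2, Tgfb3 was lower, at 1.90-fold below its control mean against 1.72-fold for Tgfb2. Tgfb2 was at 66.3, 59.2 and 53.1 CPM in control, 68.7 and 66.4 CPM in DMSO, and 11.6 and 34.6 CPM in ONX-0914 libraries. Both ONX-0914 libraries were below all other libraries, 5.14-fold and 1.72-fold lower than the control mean of 59.5 ± 6.59 CPM (SD, n = 3).

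The Log2FC of Tgfb2 was −1.32 against control (SE 0.386, FDR = 0.157, edgeR) and −1.50 against DMSO (SE 0.414, FDR = 0.206, edgeR). Hence, it did not pass the threshold over all genes in either comparison. By DESeq2, Tgfb2 was called in both, with a Log2FC of −1.35 (adjusted p = 0.0324) and −1.53 (adjusted p = 0.0336). With 1 ONX-0914 library, the Log2FC against control was −0.78 without replicate 1 and −2.36 without replicate 2. Such fits assume that the lone ONX-0914 library varies like the libraries of the other groups. The lower of the 2 values was in the library with low dentate gyrus, CA1 and CA3 markers (160, 190 and 124 CPM). In ONX-0914 replicate 2, Tgfb2 was 1.72-fold lower. There, dentate gyrus markers summed within the control range (435 CPM), CA1 markers above it (618 CPM) and CA3 markers below it (253 CPM). Single markers in replicate 2 went both ways. Of 7 dentate gyrus markers, 4 were below and 2 above all control libraries. For 5 CA1 markers these counts were 2 and 3, and for 6 CA3 markers 2 and 1. Astrocyte markers summed to 1990 to 2520 CPM in control and to 1980 and 1380 CPM in the ONX-0914 libraries. Of these 5 markers, 3 were above and 1 below all control libraries in ONX-0914 replicate 1, and 4 were below in replicate 2.

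Tgfb3 was at 19.3, 18.3 and 17.1 CPM in control, 16.9 and 18.9 CPM in DMSO, and 30.0 and 9.58 CPM in ONX-0914 libraries. Control and DMSO libraries overlapped, and the ONX-0914 libraries lay on opposite sides of them, 1.65-fold above and 1.90-fold below the control mean. The Log2FC of 0.06 (SE 0.427, FDR = 0.952) took opposite directions with 1 ONX-0914 library, at −0.93 without replicate 1 and 0.72 without replicate 2. Ttll5, which overlaps Tgfb3 on the opposite strand, was at 38.9 to 42.4 CPM in control and DMSO libraries, 61.4 and 36.9 CPM in the ONX-0914 libraries, and since the strand setting of the counting is not given, reads of the 2 genes cannot be told apart.

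Tgfb1, in the brain known mainly from microglia and vascular cells, was at 13.2, 10.4 and 12.4 CPM in control, 12.9 and 7.50 CPM in DMSO, and 12.3 and 10.1 CPM in ONX-0914 libraries. The groups overlapped, and the Log2FC was −0.11 (SE 0.29, FDR = 0.859) in ONX-0914 vs control and −0.21 (SE 0.309, FDR = 1.0) in DMSO vs control. Microglial markers were at 261 to 275 CPM in control, 299 and 331 CPM in DMSO, and 298 and 418 CPM in ONX-0914 libraries.

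The start regions of Tgfb2 and Tgfb1 differ in composition, and the 250 bases before each start site are shown because these ligand genes had the largest and the smallest ONX-0914 vs control Log2FC in size among the genes with a start region, taken from RefSeq for GRCm38.p6. Such regions were found for 6 of the 10 genes. That of Tgfb2, at chr1:186705990-186706239 on the minus strand, has 53.6% G and C, against a median of 52.4% over 32851 regions of this length. Capitals mark the CAGA motif CAGACA at −204, the E-box CACGTG at −51 and the TATA box TATAAA at −31, counted to the start site at 0.
Tgfb2: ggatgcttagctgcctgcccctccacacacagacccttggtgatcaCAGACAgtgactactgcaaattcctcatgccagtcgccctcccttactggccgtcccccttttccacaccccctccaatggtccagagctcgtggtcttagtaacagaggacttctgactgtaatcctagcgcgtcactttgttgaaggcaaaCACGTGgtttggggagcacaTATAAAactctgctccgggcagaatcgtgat
That of Tgfb1, at chr7:25686752-25687001 on the plus strand, has 75.2% G and C, and capitals mark 5 GC boxes (GGGCGG or its reverse complement CCGCCC).
Tgfb1: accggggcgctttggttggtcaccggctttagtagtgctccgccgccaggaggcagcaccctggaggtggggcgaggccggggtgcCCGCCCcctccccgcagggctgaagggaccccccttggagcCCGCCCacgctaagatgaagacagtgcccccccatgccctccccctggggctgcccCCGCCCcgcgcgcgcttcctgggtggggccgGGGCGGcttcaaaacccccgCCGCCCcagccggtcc
Searched on both strands, with no overlap between motifs in these regions, TATAAA was in 12.4% of all regions, CACGTG in 6.02%, CAGACA in 17.1% and GGGCGG in 32.7%. Tgfb1 held none of the first 3 motifs and Tgfb2 held no GC box. A match of letters is a description of the sequence only.

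Neither of the receptor genes was called in the full comparison of the groups. Acvr1c (ENSMUSG00000026834) encodes ALK7, a type I receptor for Nodal and activin B, and was at 24.2, 36.3 and 29.5 CPM in control, 29.8 and 21.1 CPM in DMSO, and 30.5 and 42.3 CPM in ONX-0914 libraries. Its Log2FC was 0.28 (SE 0.256, FDR = 0.56) in ONX-0914 vs control, and 0.47 (FDR = 0.0361) without ONX-0914 replicate 1. Acvr2a (ENSMUSG00000052155), a type II receptor for activins, was at 44.2, 37.9 and 38.0 CPM in control, 44.3 and 46.8 CPM in DMSO, and 42.8 and 46.7 CPM in ONX-0914 libraries. The 4 treated libraries covered 42.8 to 46.8 CPM, and the Log2FC values were 0.16 (SE 0.171, FDR = 0.621) for ONX-0914 and 0.19 (SE 0.174, FDR = 1.0) for DMSO against control. Orc4, on the strand opposite to Acvr2a, was at 22.5 to 26 CPM in control and DMSO libraries and at 27.7 and 37.8 CPM in the ONX-0914 libraries.

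**Figure D3:**
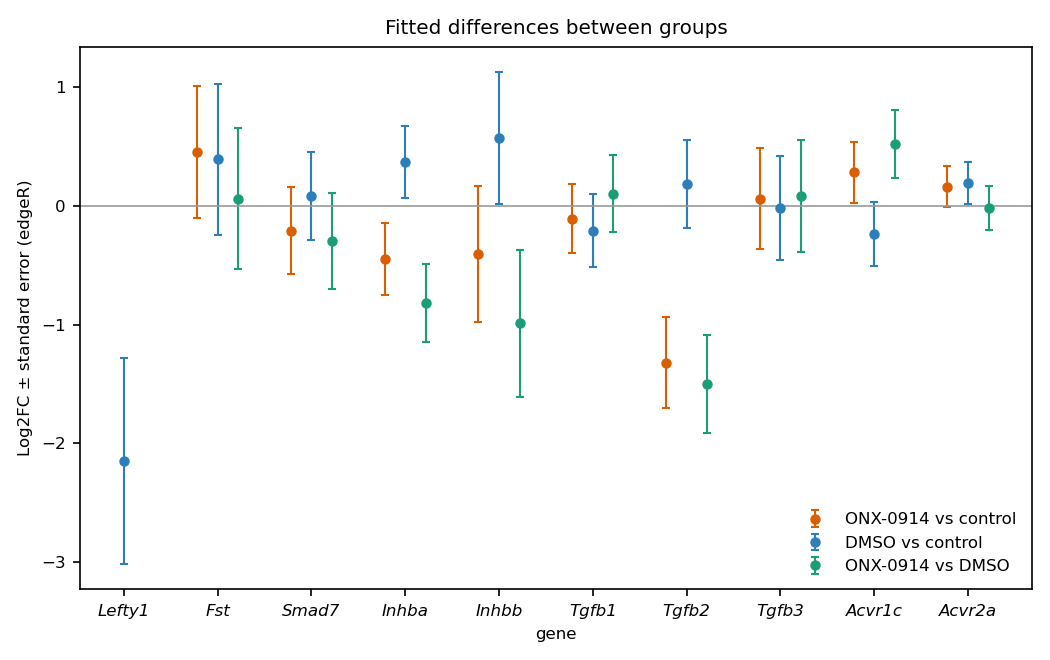
Log2FC from edgeR (vertical axis) for each gene in ONX-0914 vs control, DMSO vs control and ONX-0914 vs DMSO. Bars are standard errors derived from the F statistic of the test, and Lefty1 is shown for DMSO vs control only. The lowest values are those of Lefty1 in DMSO vs control (−2.15, given as a description) and of Tgfb2 against control (−1.32) and DMSO (−1.50). None of the genes other than Lefty1 passed an FDR of 0.05.

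Levels between genes were compared in control libraries as CPM per kilobase of exon. Smad7 (10.5 ± 0.357) and Tgfb2 (10.3 ± 1.14) were highest and overlapped, followed by Acvr2a (7.04 ± 0.636) and Tgfb3 (5.38 ± 0.322), each apart from its neighbors. Inhbb (3.94 ± 0.788), Lefty1 (3.67 ± 0.822), Inhba (3.50 ± 0.70), Acvr1c (3.23 ± 0.649) and Tgfb1 (2.38 ± 0.289) came next, and each overlapped with the next one in this order. Fst was lowest at 0.649 ± 0.262 (SD, n = 3 for all genes). In control hippocampus, Lefty1 was therefore in the same range per length as the activin subunit genes.

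Over the family, none of the 9 genes other than Lefty1 passed an FDR of 0.05 with edgeR in any comparison. Of all genes tested, 0.114% were called in ONX-0914 vs control, 0.0152% in DMSO vs control and 0.0456% in ONX-0914 vs DMSO. An unadjusted p under 0.05 was obtained in ONX-0914 vs control for 1 of the 9 genes tested there (Tgfb2), against 18.6% of all genes. In ONX-0914 vs DMSO it was obtained for 2 of 9 (Inhba and Tgfb2), against 14.7% of all genes. In DMSO vs control it was obtained for none of the 9 genes other than Lefty1, against 2.65% of all genes. DESeq2 called Tgfb2 alone of the 9 in both ONX-0914 comparisons, against 2.95% and 1.81% of all genes, and none of the 9 in DMSO vs control.

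The ONX-0914 libraries disagreed with each other on several of these genes, as the plot of one library against the other shows. For 2 of the 10 genes, Tgfb2 and Lefty1, both lay under every control library (16.3% of all genes tested), which the selection had fixed for Lefty1. No member was above all control libraries in both (16.9% of all genes). The libraries were on opposite sides of all control libraries for 4 of the 10 genes, Inhbb, Tgfb3, Fst and Smad7, against 23.4% of all genes. For Inhbb, Tgfb3 and Smad7 it was replicate 1 that was higher, and for Fst it was replicate 2.

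With 1 ONX-0914 library left out, more genes were called, over all genes as well as in the family. Without replicate 1, 6 of 9 genes were called in ONX-0914 vs control (Inhbb, Tgfb2, Tgfb3, Acvr1c, Fst and Smad7) and 6 of 9 in ONX-0914 vs DMSO (Inhba, Inhbb, Tgfb2, Tgfb3, Acvr1c and Smad7), where 51.2% and 46.0% of all genes were called. Without replicate 2, the genes called were Inhba, Tgfb2 and Tgfb3 in both comparisons, where 19.0% and 17% of all genes were called. The Log2FC of Tgfb2 against control was −0.78 without replicate 1 and −2.36 without replicate 2. Tests with 1 ONX-0914 library assume that it varies like the libraries of the other groups.

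**Figure D4:**
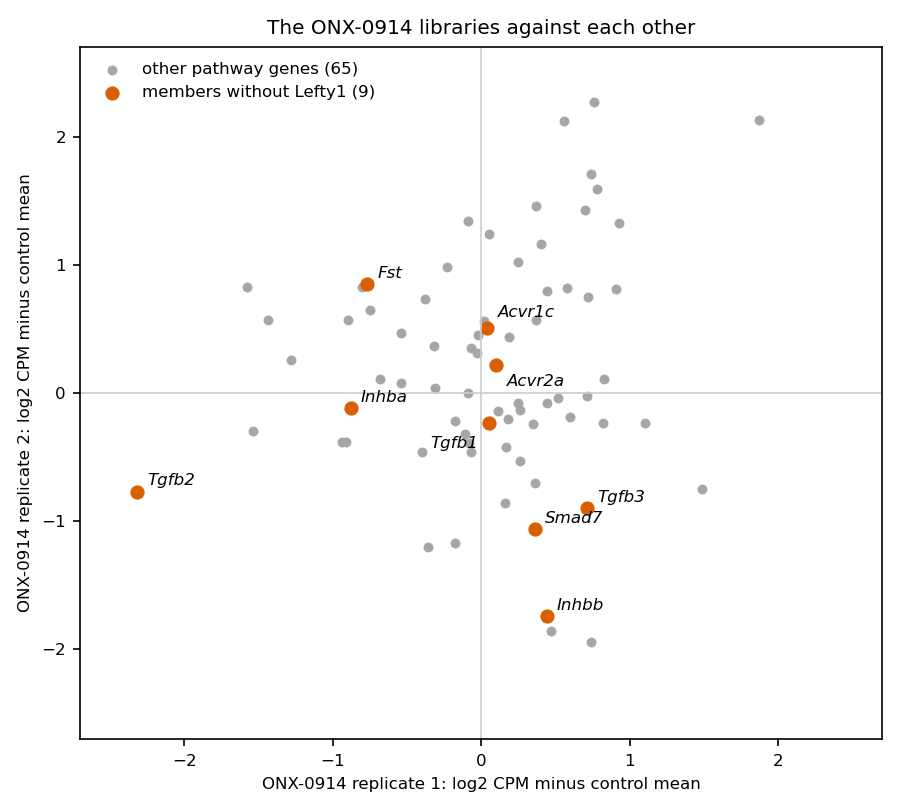
Difference of log2 CPM (prior count of 2) from the control mean in ONX-0914 replicate 1 (horizontal axis) and replicate 2 (vertical axis) for the 9 members other than Lefty1 and for 65 other genes of the pathway (gray). Tgfb2 is at −2.32 and −0.77, while Inhbb (0.44 and −1.74), Tgfb3 (0.71 and −0.90) and Smad7 (0.36 and −1.06) are at the lower right.

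In the DMSO libraries, Lefty1 was the gene of the family below all control libraries in both (1 of 10, against 15% of all genes tested), having passed the filter on low counts through the controls. Inhbb, Tgfb2 and Acvr2a were above all control libraries in both (3 of 10, against 15.7%). Their Log2FC values were 0.57, 0.18 and 0.19, each about as large as its standard error or smaller (0.558, 0.371 and 0.174). Hence, Tgfb2 was on opposite sides of the controls in the DMSO and ONX-0914 libraries, although the difference from control with DMSO was within the error.

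Of 89 further genes of the pathway, 65 were high enough to be tested, and edgeR called none in any of the 3 comparisons. An unadjusted p under 0.05 was obtained for 14 of 65 in ONX-0914 vs control, 2 in DMSO vs control and 14 in ONX-0914 vs DMSO, where 18.6%, 2.65% and 14.7% of all genes had one. Their median Log2FC in ONX-0914 vs control was 0.15, with 40 above and 25 below 0, where the median of all genes tested was 0.05. DESeq2 called 2 of the 65, Bmp3 and Eng, in ONX-0914 vs control, where it called 2.95% of all genes, and none in the other comparisons. For 8 of these genes both ONX-0914 libraries lay under every control library, for 14 they lay above, and for 19 they lay on opposite sides, where 16.3%, 16.9% and 23.4% of all genes did.

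On the list of other ligands, which also holds the protease gene Bmp1, 9 of 20 were tested, with a median Log2FC of −0.08 in ONX-0914 vs control. Bmp3, which antagonizes other bone morphogenetic proteins, was at 1.43, 2.73 and 2.20 CPM in control, 2.41 and 3.21 CPM in DMSO, and 8.56 and 10.3 CPM in ONX-0914 libraries (Log2FC = 2.13, SE 0.358, FDR = 0.0727). Both ONX-0914 libraries were above all others. Inha, the alpha subunit that turns activin dimers into inhibins, was at 5.35 to 7.91 CPM in control, 5.37 and 6.78 CPM in DMSO, and 11.3 and 11.6 CPM in ONX-0914 libraries (Log2FC = 0.74, FDR = 0.217). Bmp7, a bone morphogenetic protein, was at 2.75 to 4.09 CPM in control, 2.15 and 3.57 CPM in DMSO, and 4.78 and 8.39 CPM in ONX-0914 libraries (Log2FC = 0.95, FDR = 0.251). For Bmp4, by contrast, the ONX-0914 libraries were on opposite sides of the controls, at 6.54 and 0.991 CPM against 4.13 to 5.18 CPM, and the DMSO libraries were above them at 9.12 and 8.57 CPM (Log2FC = −0.66, FDR = 0.632).

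Among the other receptors and co-receptors, 12 were tested, with a median of 0.26. Eng, the endothelial co-receptor endoglin, was at 7.13, 7.09 and 5.51 CPM in control, 8.59 and 7.14 CPM in DMSO, and 11.3 and 33.0 CPM in ONX-0914 libraries (Log2FC = 1.80, FDR = 0.119). Endothelial markers were higher in the same 2 libraries and in DMSO replicate 3, as given above. Acvr1b, the type I receptor ALK4 shared by Nodal and activins, was at 240 to 284 CPM in control, 220 and 235 CPM in DMSO, and 203 and 114 CPM in ONX-0914 libraries (Log2FC = −0.73, FDR = 0.196). Acvr2b, a type II receptor like Acvr2a, was at 1.43 to 3.27 CPM in control and at 4.78 and 4.43 CPM in ONX-0914 libraries (Log2FC = 0.83, FDR = 0.333), and Tmem100, a gene of endothelial signaling, was at 3.58 to 6.82 CPM in control, 8.32 and 8.92 CPM in DMSO, and 6.54 and 8.52 CPM in ONX-0914 libraries (Log2FC = 0.64, FDR = 0.34). The TGF-beta receptor gene Tgfbr1 was at 25.3 to 34.4 CPM in control and at 27.7 and 29.7 CPM in ONX-0914 libraries (Log2FC = −0.06, FDR = 0.90).

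The 14 SMAD and SMAD partner genes tested had a median of −0.02. For 6 of them the libraries with ONX-0914 were on opposite sides of the controls, against 23.4% of all genes tested. Smad3, the effector of activin and TGF-beta signals, was at 54.5 to 62.7 CPM in control and at 31.5 and 87.9 CPM in ONX-0914 libraries (Log2FC = 0.03, FDR = 0.974). The largest Log2FC values in size on this list were those of Smad9 (0.34), Smad2 (−0.29), Smurf1 (−0.24) and Smad6 (−0.22), with FDR values of 0.474 to 0.797. Of 7 genes for the storage and activation of latent TGF-beta, with a median of 0.31, Itgb8, whose integrin releases active TGF-beta, was at 38.0 to 41.4 CPM in control, 53.9 and 42.1 CPM in DMSO, and 46.8 and 80.3 CPM in ONX-0914 libraries (Log2FC = 0.70, FDR = 0.201). Nrros, which holds latent TGF-beta on microglia, was at 2.45 to 3.21 CPM in control, 3.49 and 3.21 CPM in DMSO, and 2.52 and 7.40 CPM in ONX-0914 libraries (Log2FC = 1.02, FDR = 0.299). The latent TGF-beta binding protein genes Ltbp3 and Ltbp1 had Log2FC values of 0.51 (FDR = 0.306) and −0.47 (FDR = 0.537). Of 11 other extracellular inhibitors, 10 had a Log2FC above 0 in ONX-0914 vs control, as did 53.8% of all genes tested, and none was called. Their median was 0.38. The ONX-0914 libraries were both above the controls for 2 of them and on opposite sides for 5, against 16.9% and 23.4% of all genes tested. Fstl4, a relative of follistatin, was at 4.28 to 6.88 CPM in control, 6.17 and 3.93 CPM in DMSO, and 9.06 and 18.0 CPM in ONX-0914 libraries (Log2FC = 1.37, FDR = 0.146). Dcn, which encodes the TGF-beta-binding proteoglycan decorin, had a Log2FC of 0.93 (FDR = 0.408) and Igsf1 of 0.66 (FDR = 0.589). The exception was Grem1, an inhibitor of bone morphogenetic proteins, at 9.54 to 13.9 CPM in control, 17.7 and 15.3 CPM in DMSO, and 3.78 and 9.45 CPM in ONX-0914 libraries (Log2FC = −0.73, FDR = 0.33).

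The 13 transcriptional targets tested had a median of 0.15 in ONX-0914 vs control, with 8 above and 5 below 0. Of them, 6 had an unadjusted p under 0.05 (edgeR), against 18.6% of all genes tested, and none was called. Id1, a target of bone morphogenetic protein signals, was at 3.82 to 4.63 CPM in control, 2.95 and 3.21 CPM in DMSO, and 5.54 and 12.2 CPM in ONX-0914 libraries (Log2FC = 1.16, FDR = 0.186). Id3, of the same family, was at 3.86 to 7.84 CPM in control and at 7.55 and 23.1 CPM in ONX-0914 libraries (Log2FC = 1.64, FDR = 0.165). Ccn2, a target of TGF-beta, was at 2.45 to 4.63 CPM in control and at 5.54 and 9.45 CPM in ONX-0914 libraries (Log2FC = 1.24, FDR = 0.179). Cdkn1a, a cell cycle inhibitor gene induced by TGF-beta, was at 3.92 to 5.18 CPM in control, 7.24 and 12.5 CPM in DMSO, and 7.80 and 13.9 CPM in ONX-0914 libraries (Log2FC = 1.34, FDR = 0.146). For these genes, named for the size of their Log2FC, the larger ONX-0914 value was in replicate 2, but this did not hold for every target tested. Replicate 2 was the library with 837 CPM of blood markers, and the part of blood or other tissue in these values was not tested.

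The genes whose log2 CPM was most like that of Lefty1 over the 7 libraries were Cox15, Cfap43, Ccdc93, Wdr11 and Eif2b3, with Pearson's r of 0.977, 0.961, 0.957, 0.956 and 0.95. Their ranges were much narrower than that of Lefty1. Cox15, the closest, was at 31.7 to 34.2 CPM in control, 23.9 and 30.0 CPM in DMSO, and 25.9 and 23.6 CPM in ONX-0914 libraries. The points share their libraries and depths, and these values are a description of 7 libraries of 3 groups. They are the highest r values among all genes tested outside the family, and the selection had fixed the ONX-0914 values of Lefty1.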

How the data were processed

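Hippocampal RNA with an integrity number of at least 8 was made into directional libraries and sequenced as 100-base single-end reads. Per the labels, the submitters' processing notes name Trimmomatic 0.39, STAR 2.7.3a, featureCounts 2.00 and build GRCm39. The annotation release and the strand setting of the counting are not given in the sources used here. The authors deposited raw counts per gene, 1 table per library, with no normalization. Of the reads in these tables, 89.6% to 91.4% were on genes. Summary lines, with 0 multi-mapping reads in all 7 tables, were left out of the library sizes.

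Symbols, exon lengths and transcripts came from GENCODE M21 (GRCm38), in which 52135 of 55416 identifiers had a symbol, and because the builds differ the only coordinates given are those of the RefSeq start regions in GRCm38.p6. The 10 genes, the pathway lists and the marker lists were chosen with earlier results of these data known. Named genes were the 10 members, up to 4 genes per pathway list with the largest Log2FC in size, the genes at the border of the selection rule and the 5 genes most like Lefty1. Tgfbr1, Smad3, Nodal, Tdgf1, Lefty2 and Bmp1 were named in addition for their roles, after their values were seen.

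Counts were analyzed in R 4.3.3 with edgeR 4.0.16 (filterByExpr over 3 groups, TMM with factors between 0.965 and 1.10, glmQLFit and glmQLFTest over all 7 libraries with 1 mean per group, Benjamini–Hochberg adjustment over all genes tested, threshold 0.05). Biological variation had a common coefficient of 0.249, and Log2FC values used a prior count of 0.125. The edgeR test gives no standard error, so each SE is the absolute Log2FC divided by the square root of its F statistic. Such an SE is approximate, most of all for genes with counts of 0. A count of 0 was given an upper limit of 3 counts. The steps were tested on simulated counts. Alternatives were DESeq2 1.42.0, other scalings and filters, a prior count of 2, the compared groups alone, the replicate number as a block, each library left out in turn and, added after seeing the data, the earlier form of the quasi-likelihood fit. A further result is not reported here.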

Additional observations from a re-analysis of the deposited data

How the results depend on the processing

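The number of genes of the family called was 0 in every comparison under RLE size factors, total counts, at least 10 counts in every library, the compared groups alone and the earlier quasi-likelihood form. It was 1 (Tgfb2) in ONX-0914 vs control and 1 (Tgfb2) in ONX-0914 vs DMSO with no filter on low counts and with DESeq2, and 0 to 6 in each with 1 library left out. Pathway genes called in ONX-0914 vs control were 5 without a filter, 2 with DESeq2 and 0 to 34 with 1 library left out. In DMSO vs control 1 pathway gene was called with the compared groups alone and 0 to 1 with 1 library left out, and in ONX-0914 vs DMSO 0 to 32 were called with 1 library left out.

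Over all genes, 15 were called in ONX-0914 vs control, and 578 without a filter, 3 with the compared groups alone, 388 with DESeq2 and 0 to 7023 with 1 library left out, the highest without ONX-0914 replicate 1 and 2594 without replicate 2. In DMSO vs control 2 were called, and 11 without a filter, 0 with at least 10 counts in every library, 141 with the compared groups alone, 9 with DESeq2 and 0 to 146 with 1 library left out. In ONX-0914 vs DMSO 6 were called, and 11 with RLE size factors, 3 with total counts, 297 without a filter, 10 with at least 10 counts in every library, 0 with the compared groups alone, 238 with DESeq2 and 0 to 6313 with 1 library left out. Leaving out any 1 control library gave 0 calls in each comparison. The cause was not tested. Total counts moved the median Log2FC of all genes in ONX-0914 vs control from 0.05 to 0.19.

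Deviations of same-numbered libraries from their group means had correlations of −0.0963 to 0.064. Within a group of 2 libraries such deviations mirror each other, so these values cannot decide whether the numbers mark pairs. The numbers were not taken as pairs. With the replicate block, 1, 0 and 0 genes were called in ONX-0914 vs control, DMSO vs control and ONX-0914 vs DMSO, and none of the family.

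Of 444 Log2FC values of the family under alternatives, 394 kept their direction and side of the threshold, 20 became called in the same direction and 30 turned in direction, from differences within their errors. Of these 30, 2 were also called, both for Tgfb3 without ONX-0914 replicate 1 (−0.93 against control and −0.90 against DMSO), so that 22 were called in all. With 1 library left out, ONX-0914 vs control ranged from −1.85 to 0.42 for Inhbb, −0.24 to 0.05 for Tgfb1, −0.93 to 0.72 for Tgfb3, −0.92 to 0.90 for Fst and −1.08 to 0.36 for Smad7. DMSO vs control ranged from −0.67 to 0.11 for Tgfb1, −0.11 to 0.06 for Tgfb3 and −0.10 to 0.25 for Smad7. ONX-0914 vs DMSO ranged from −0.22 to 0.56 for Tgfb1, −0.90 to 0.75 for Tgfb3, −0.09 to 0.03 for Acvr2a, −1.32 to 0.49 for Fst and −1.15 to 0.28 for Smad7. With the replicate block, Tgfb3 was at −0.17 in ONX-0914 vs control, 0.21 in DMSO vs control and −0.38 in ONX-0914 vs DMSO, and Tgfb1 at −0.06 in the last. With total counts, Tgfb1 was at 0.03 in ONX-0914 vs control and Acvr2a at 0.11 against DMSO. In ONX-0914 vs DMSO, Acvr2a was at 0.01 without a filter and 0.0 with at least 10 counts in every library, and Fst at −0.03 with the earlier quasi-likelihood form and with a prior count of 2, 0.0 with the compared groups alone and −0.08 with DESeq2. Lefty1 and Fst have under 10 counts in some libraries and gave no value under that filter. Lefty1, with 0 to 24 counts per library, and Fst, with 6 to 82, are the genes most limited by depth.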
